A study of Bos taurus with 20 samples.

Results

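The heat shock chaperones examined here were 10 genes, namely HSPA1A, HSPA8, HSPA5, HSPH1, HSP90AA1, HSP90AB1, HSPB1, DNAJB1, HSPD1 and HSPE1, in whole blood of pregnant cows. They were chosen by name, as members of the heat shock protein families that fold other proteins, and each symbol was matched to a gene identifier through the NCBI cattle gene table. All 10 were found among the 37063 genes counted, and all 10 were among the 16206 genes with at least 10 reads in at least 5 cows, which were the genes tested.

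Chaperones bind unfolded or newly made proteins, keep them from aggregating and help them reach their folded form. The HSP70 proteins bind short stretches of unfolded chain in a cycle driven by ATP, J-domain proteins bring clients to HSP70, and HSP90 proteins finish the folding of kinases, steroid receptors and other signalling proteins. Small heat shock proteins hold unfolded chains without ATP, and the chaperonins are barrels in which a protein folds in isolation. Most of these genes are used in every cell and can be raised by heat or other stress through the transcription factor HSF1.

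Blood of 20 recipient cows was drawn into Tempus tubes, which lyse the cells and stabilize RNA, at day 63 of gestation. Each cow carried a female calf from a beef-donor oocyte fertilized in vitro with X-sorted semen, so all cows belonged to 1 condition. The weight of the calf at birth (calf BW) was the only variable in the sample labels, and 1 library was made per cow. Recipient age, parity and the sire also varied in the study and are not given per cow in the labels, so they were not in the models. The study's sources describe the recipients both as lactating dairy cows and as Angus, and they name different library kits. No heat-stressed or other control group was included. Calf BW was 45.0 ± 10.1 kg (SD, n = 20), and 43.5 ± 7.97 kg (SD, n = 19) without the 72.5 kg calf. Every calf had its own BW, so a cow is named below by the weight of its calf.

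Total counts ranged from 24632077 to 39892111 per cow, with a median of 33412740, and no library repeated another (chi-square per degree of freedom of at least 10.9 over 190 pairs of cows). Levels are given in CPM, the usual unit in which every library is scaled to the same total count, here after adjustment by the trimmed mean of M values (TMM). Marker genes of blood leukocytes were present, with summed levels of 3646 to 6321 CPM for 12 neutrophil markers, 2154 to 4697 CPM for 9 monocyte markers and 1403 to 2055 CPM for 14 T cell markers. The sums were 1048 to 1901 CPM for 10 B cell markers and 399 to 629 CPM for 9 natural killer cell markers. The eosinophil list was poorly covered, with 2 of 10 genes tested, IL5RA and GATA1, and a sum of 26.7 to 243 CPM. Listed at 0 were GZMA of the natural killer list, CX3CR1 of the monocyte list, and CCR3 and ALOX15 of the eosinophil list. The 12 erythroid markers tested summed to 58.0 to 1101 CPM. In whole blood, fewer cells of a type and less RNA per cell cannot be told apart. Transcript lengths were not used here, so levels of different chaperones are not ranked against each other. p-values measure the spread between cows with a single library each.

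The 10 chaperones together made up between 0.525% and 0.614% of the normalized counts in a cow, with a median of 0.581%. The lowest share was in the recipient of the 30 kg calf and the highest in the recipient of the 35 kg calf. Set against the whole table, chaperone transcripts varied little from cow to cow. The SD of log2 CPM over the 20 cows was below the median of all genes tested (0.224) for 9 of the 10 members, and 7 of the 10 lay in the lower quartile of all genes. Well-counted genes have less counting error, so each member was also placed among genes within 1 log2 unit of its own level. On that footing the members spread widely, from the percentile 11.8 for HSP90AB1 to the percentile 91.4 for HSPA1A.

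**Figure D1:**
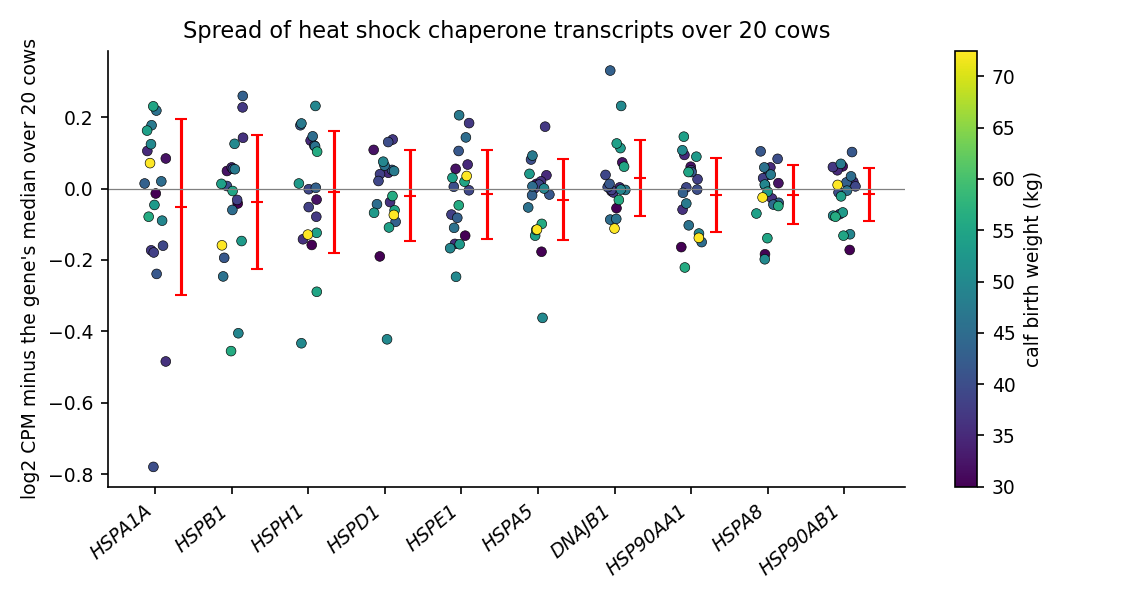
Log2 CPM of each heat shock chaperone minus its median over cows (vertical axis) for the 10 genes (horizontal axis), with 1 point per cow coloured by calf BW in kg and a red bar for the mean ± SD over 20 cows. HSPA1A has the widest spread (SD 0.246) with a pair of cows far below the rest, and HSP90AB1 the narrowest (SD 0.0751).

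HSPA1A, the stress-inducible cytosolic HSP70, was the most variable of the 10 members by the SD of log2 CPM. Its level was 201 CPM in the lowest cow, 345 CPM at the median and 405 CPM in the highest, with a mean of 337 ± 51.4 CPM (SD, n = 20). Low values came from the recipients of the 40 kg calf (201 CPM) and the 36 kg calf (247 CPM), while the other 18 cows lay between 293 and 405 CPM. The cattle gene table gives HSPA1B as a synonym of HSPA1A, and reads of near-identical copies could have been divided or pooled in counting, so the level may stand for more than 1 copy. The related genes with their own identifiers were low, at 1.18 to 3.58 CPM for HSPA1L and 0.273 to 1.96 CPM for HSPA6.

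HSPA8, the constitutive HSP70 of the cytosol, was far steadier. It ranged from 1328 CPM in the recipient of the 50 kg calf through a median of 1523 CPM to 1636 CPM in the recipient of the 41.5 kg calf, a coefficient of variation of 5.56%. HSPA5, the HSP70 of the endoplasmic reticulum (ER), also called BiP, ranged from 176 CPM (50 kg calf) through 226 CPM to 255 CPM (37 kg calf). HSPH1, a large HSP70 relative that helps HSP70 release its nucleotide, ranged from 34.0 CPM (50 kg calf) through 45.9 CPM to 53.8 CPM (49.5 kg calf). The same cow was therefore lowest for all 3 of these genes. For HSPA5 the next lowest cow stood at 200 CPM.

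The cytosolic HSP90 pair consists of HSP90AA1, the more inducible form, and HSP90AB1, the constitutive form. HSP90AA1 ranged from 1586 CPM in the recipient of the 56 kg calf through a median of 1848 CPM to 2043 CPM in the recipient of the 54 kg calf. HSP90AB1 was the least variable member, from 1357 CPM (30 kg calf) through 1529 CPM to 1640 CPM (41.5 kg calf), a coefficient of variation of 5.14%. Only 3.44% of all genes tested had a smaller SD of log2 CPM. Extremes of the HSP90 pair thus fell in different cows.

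HSPB1, the small heat shock protein Hsp27, was the next most variable member after HSPA1A (SD 0.186 on the log2 scale). It ranged from 146 CPM in the recipient of the 56 kg calf through a median of 200 CPM to 239 CPM in the recipient of the 43 kg calf, and the next lowest value, 151 CPM, came from the recipient of the 49.5 kg calf. DNAJB1, a J-domain partner of HSP70 also called Hsp40, ranged from 35.9 CPM (72.5 kg calf) through 38.8 CPM to 48.8 CPM (43 kg calf). Its spread was mostly upward. The recipients of the 43 kg calf and the 50 kg calf (45.5 CPM) stood above the other 18, which lay between 35.9 and 42.3 CPM.

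HSPD1 (Hsp60) and HSPE1 (Hsp10) form the mitochondrial chaperonin, a barrel and its lid, and are neighbours in the cattle gene table. HSPD1 ranged from 60.1 CPM in the recipient of the 50 kg calf through a median of 80.5 CPM to 88.6 CPM in the recipient of the 37 kg calf. HSPE1, the least abundant member in reads, ranged from 13.9 CPM (50 kg calf) through 16.5 CPM to 19 CPM (47.4 kg calf), and its lowest count was 374 reads. The HSP70, HSP90 and chaperonin genes are families with many processed copies in mammalian genomes, and how reads that fit several genes were treated is not given in the sources used here.

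A pair of cows recurred at the low end. The recipient of the 50 kg calf had the lowest value of 5 members (HSPA8, HSPA5, HSPH1, HSPD1 and HSPE1) and the second highest of DNAJB1 and HSP90AA1 (1991 CPM). The recipient of the 30 kg calf had the lowest HSP90AB1 and the second lowest HSPA8, HSPA5, HSP90AA1 and HSPD1. The former had the highest neutrophil score (1.21) and the highest immediate early gene score (1.16) of all cows. A score here is the mean over a list of genes of each gene's z value, that is, its log2 CPM minus its mean over cows divided by its SD. The library of the latter cow was the smallest, at 24632077 counts.

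Co-variation of the chaperones was examined with the Pearson correlation of log2 CPM over the 20 cows, for all 45 pairs. The correlation reached 0.6 in 8 of 45 pairs (17.8%), against 1.41% of the 131309115 pairs of all genes tested, and r reached 0.8 in 2 pairs, against 0.0818% of all pairs. The median r was 0.14 between members and 0 over all pairs. Members had at least 374 reads in every cow, while the pairs of all genes include low counts with more counting error. The shares were therefore not matched for level. Values ran from -0.45 to 0.87, and 17 of the 45 pairs were negative. The 8 pairs involved HSPA8, HSPA5, HSPH1, HSPD1, HSP90AB1 and HSPE1, and none involved HSPA1A, HSPB1, DNAJB1 or HSP90AA1.

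**Figure D2:**
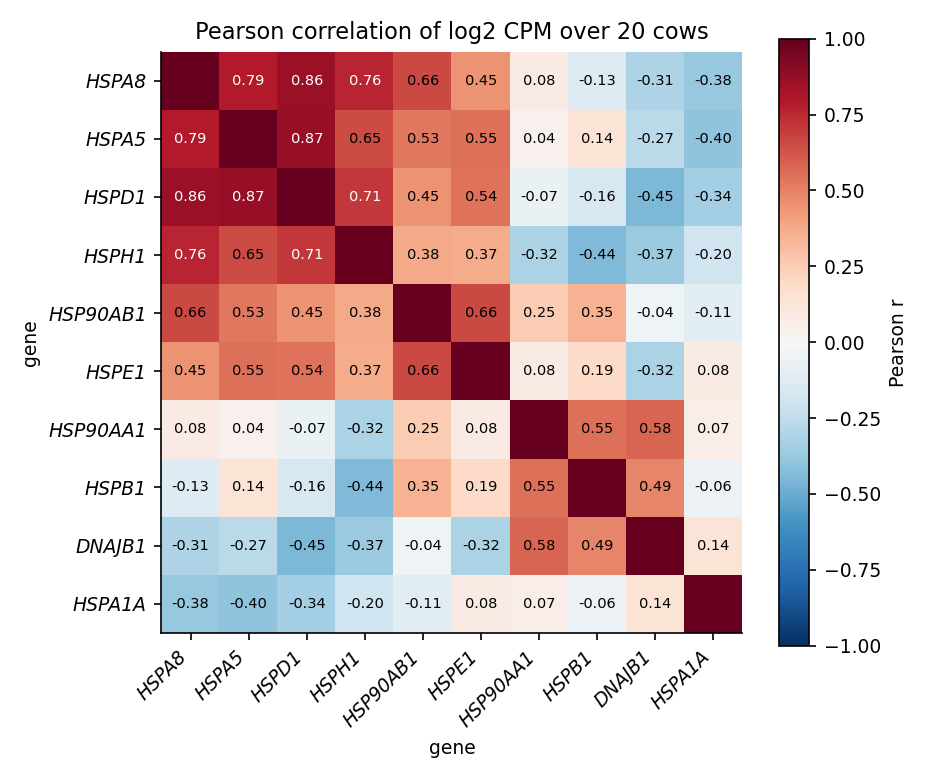
Pearson correlation of log2 CPM over 20 cows between each pair of heat shock chaperones (both axes list the 10 genes, colour and printed value give r). A block of high r holds HSPA8, HSPA5, HSPD1 and HSPH1 (0.65 to 0.87), HSP90AA1, HSPB1 and DNAJB1 form a weaker group (0.49 to 0.58), and HSPA1A reaches at most 0.14 with any other member.

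The highest correlation joined chaperones of separate compartments. HSPA5 of the ER and HSPD1 of the mitochondrion had r = 0.87 (permutation p = 3e-05, adjusted p = 0.000675 over the 45 pairs by the Benjamini-Hochberg method) and Spearman rho = 0.68 (permutation p = 0.00153). The correlation was 0.66 without the 2 cows farthest from the median of HSPA5, and 0.74 without the recipient of the 50 kg calf alone. In every pair the 2 farthest cows were taken from 1 gene, the one that comes first in the opening list of members. HSPA8 and HSPD1 had r = 0.86 (permutation p = 1e-05, the lowest value possible with 100000 resamples, adjusted p = 0.00045) and rho = 0.84 (permutation p = 1e-05), with r = 0.75 without the 2 farthest cows. In this pair r and rho were alike.

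Within the HSP70 family, HSPA8 and HSPA5 had r = 0.79 (permutation p = 5e-05, adjusted p = 0.00075) and rho = 0.66 (permutation p = 0.00198), with r = 0.59 without the 2 farthest cows. HSPA8 and HSPH1 had r = 0.76 (permutation p = 0.00018, adjusted p = 0.00202) and rho = 0.65 (permutation p = 0.00269), with r = 0.64 without them. The relation of HSPA5 with HSPH1 rested largely on the recipient of the 50 kg calf, with r = 0.65 (permutation p = 0.00241, adjusted p = 0.0136) and rho = 0.50 (permutation p = 0.0267) in all cows but r = 0.42 without that cow and 0.33 without the 2 farthest. For HSPH1 and HSPD1 r was 0.71 (permutation p = 0.00089, adjusted p = 0.00801) and rho 0.57 (permutation p = 0.00991), and r was 0.50 without that cow and 0.49 without the 2 farthest cows.

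HSP90AB1 was tied to the same group more loosely. Its r with HSPA8 was 0.66 (permutation p = 0.00178, adjusted p = 0.0114), its rho 0.58 (permutation p = 0.00806), and r was 0.53 without the 2 farthest cows and 0.55 without the recipient of the 30 kg calf. With HSPE1 its r was also 0.66 (permutation p = 0.00158, adjusted p = 0.0114), its rho 0.70 (permutation p = 0.00083), and r was 0.76 without the 2 farthest cows. The chaperonin partners HSPD1 and HSPE1 had r = 0.54 (permutation p = 0.0119, adjusted p = 0.0477) and rho = 0.38 (permutation p = 0.101), and r was 0.35 without the recipient of the 50 kg calf and 0.26 without the 2 farthest cows. Each of these partners had a higher r with some other member than with its own partner, a difference that was not tested.

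HSPA1A stood apart from the others. It had no r above 0.14 with any other member, and its lowest was -0.40 with HSPA5 (permutation p = 0.0837, adjusted p = 0.198, rho = -0.39, permutation p = 0.0906, r = -0.35 without the 2 farthest cows). HSP90AA1 and DNAJB1 had r = 0.58 (permutation p = 0.00562, adjusted p = 0.0281) and rho = 0.74 (permutation p = 0.00035), with r = 0.57 without the 2 farthest cows and 0.76 without the recipient of the 43 kg calf. HSP90AA1 and HSPB1 had r = 0.55 (permutation p = 0.0127, adjusted p = 0.0477) and rho = 0.48 (permutation p = 0.0335), with r = 0.42 without the 2 farthest cows. The 2 cytosolic HSP90 genes themselves had r = 0.25 (permutation p = 0.286, adjusted p = 0.429, rho = 0.17, permutation p = 0.478, r = -0.03 without the 2 farthest cows).

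The number of genes of the whole table with r of at least 0.6 to a member ranged from 38 (0.234% of the other genes) for HSP90AB1 to 1018 (6.28%) for HSPB1. HSP90AA1 had 479 such genes, HSPD1 455, HSPA5 448 and HSPA8 305, whereas HSPA1A had 144 and HSPE1 105. The genes most like each member by r over the 20 cows, up to 3 for each, are given as a description, with no test, since they are the highest of 16205 values.

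For HSPA8 the nearest genes were CACYBP, a calcyclin-binding protein (r = 0.89), HMMR, a receptor of hyaluronan that also binds the mitotic spindle (0.89), and GOLGA4, a Golgi protein (0.86). For HSPA5 they were MCM6 of the replicative helicase (0.88), the nuclear import receptor IPO5 (0.87) and BUB1 of the spindle checkpoint (0.87). HSPH1 was nearest to KNL1 of the kinetochore (0.89), SNAPC3 of the small nuclear RNA activating complex (0.81) and SMC2 of condensin (0.80). HSPD1 was nearest to the RNA-binding protein HNRNPA2B1, the DNA repair gene RBBP8 and CACYBP, all at 0.90. CACYBP was the only gene on more than 1 of the 10 lists.

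For HSP90AB1 the nearest genes were the exonuclease EXO1 (r = 0.75), the ADP-ribosyltransferase ART1 (0.75, at a mean of 0.585 CPM) and NCAPH of condensin (0.74), and for HSPE1 they were NSMCE4A of the SMC5/6 complex (0.81), NDUFB10 of mitochondrial complex I (0.79) and the ribosomal protein gene RPS15A (0.76). Other genes led the remaining members. HSP90AA1 was nearest to the leukocyte actin-bundling gene LCP1 (0.89), the casein kinase CSNK1A1 (0.88) and THBS1, thrombospondin 1 (0.86). HSPB1 had the highest values of all, among them RACK1, a ribosome-bound scaffold (0.95), and CFD, complement factor D (0.93). DNAJB1 was nearest to the endocytic adaptor EPS15 (0.84), the transcription factor FOXK2 (0.81) and the autophagy receptor SQSTM1 (0.81). HSPA1A was nearest to LOC786945 (0.79, at a mean of 0.333 CPM), LOC104973989 (0.77) and GGT1, gamma-glutamyltransferase (0.76).

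Blood is a mix of cell types, so each member was set against 8 cell type marker scores, a score of immediate early genes and the log2 of the total count, which made 100 relations. Immediate early genes are switched on within minutes of a stimulus, blood handling included. Here the 2 farthest cows were those farthest from the median of the score or of the log2 total count, not of the chaperone. HSP90AA1 followed the neutrophil score closely, at r = 0.85 (permutation p = 1e-05, adjusted p = 0.001 over the 100 relations) and rho = 0.89 (permutation p = 1e-05), with r = 0.79 without the 2 farthest cows. Of the 12 neutrophil genes, 11 had a positive r with HSP90AA1 and 7 reached 0.6, and the most abundant were CSF3R at a mean of 1816 CPM and S100A12 at 1178 CPM. HSP90AA1 also rose with the platelet score (r = 0.77, permutation p = 7e-05, adjusted p = 0.00175, rho = 0.66, permutation p = 0.00186, and r = 0.70 without the 2 farthest cows), whose 12 genes summed to 707 to 1992 CPM and were led by TUBB1 and ITGB3. With the monocyte score its r was 0.72 (permutation p = 0.00033, adjusted p = 0.0066, rho = 0.65, permutation p = 0.00224, and r = 0.63 without the 2 farthest cows).

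HSPB1 followed the monocyte score, at r = 0.83 (permutation p = 2e-05, adjusted p = 0.001) and rho = 0.75 (permutation p = 0.00027), with r = 0.74 without the 2 farthest cows. All 9 monocyte genes tested had a positive r with HSPB1, the most abundant being LYZ (1794 CPM) and FCN1 (601 CPM), and CX3CR1 was listed at 0 in every cow. With the immediate early score the r of HSPB1 was 0.64 (permutation p = 0.00291, adjusted p = 0.0415, rho = 0.59, permutation p = 0.00768, and r = 0.54 without the 2 farthest cows). Its r was 0.57 with the neutrophil score (permutation p = 0.00841, adjusted p = 0.0701, rho = 0.56, permutation p = 0.0106, and r = 0.49 without the 2 farthest cows), with 11 of 12 genes positive. With the platelet score it was 0.55 (permutation p = 0.0119, adjusted p = 0.0917, rho = 0.61, permutation p = 0.00491, and r = 0.70 without the 2 farthest cows). Whether the scores differed in their relation to HSPB1 and HSP90AA1 was not tested. NR4A1 is in both the immediate early and the monocyte list. THBS1, named above as near HSP90AA1, is in the platelet list, so those observations on HSP90AA1 are not separate.

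DNAJB1 rose with the immediate early genes, at r = 0.79 (permutation p = 3e-05, adjusted p = 0.001) and rho = 0.62 (permutation p = 0.00491), with r = 0.61 without the 2 farthest cows. All 23 immediate early genes tested had a positive r with DNAJB1 and 5 reached 0.6. Their summed level ranged from 1921 CPM through a median of 2219 CPM to 2640 CPM, led by IER5 and KLF2. The recipients of the 50 kg and 43 kg calves had the highest immediate early scores (1.16 and 0.958) and the highest DNAJB1. With the neutrophil score the rho of DNAJB1 was 0.65 (permutation p = 0.00263, r = 0.50, permutation p = 0.0231, adjusted p = 0.136, and r = 0.43 without the 2 farthest cows), with 11 of 12 genes positive. With the platelet score its rho was also 0.65 (permutation p = 0.00283, r = 0.55, permutation p = 0.015, adjusted p = 0.107, and r = 0.48 without the 2 farthest cows), with 12 of 12 genes positive. Whether these relations differed was not tested.

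HSPH1 moved the other way, with r = -0.64 to the neutrophil score (permutation p = 0.00211, adjusted p = 0.0352, rho = -0.56, permutation p = 0.0123, and r = -0.62 without the 2 farthest cows), and 0 of the 12 neutrophil genes had a positive r with it. With the immediate early score its r was -0.60 (permutation p = 0.0048, adjusted p = 0.0533, rho = -0.54, permutation p = 0.0151, and r = -0.51 without the 2 farthest cows), and 0 of the 23 genes had a positive r. HSPA1A had r = 0.62 with the eosinophil score (permutation p = 0.00332, adjusted p = 0.0415, rho = 0.60, permutation p = 0.00615, and r = 0.67 without the 2 farthest cows). That score rested on IL5RA and GATA1 alone, since only 2 of its 10 genes were tested and the eosinophil genes CCR3 and ALOX15 were listed at 0. The other members, HSPA8, HSPA5, HSP90AB1, HSPD1 and HSPE1, had no adjusted p under 0.05 with any score, the nearest being HSPE1 with the B cell score (r = -0.59, permutation p = 0.00615, adjusted p = 0.0615, rho = -0.56, permutation p = 0.0105, and r = -0.46 without the 2 farthest cows). With the T cell score r was 0.54 for HSPD1 (permutation p = 0.0163, adjusted p = 0.108, rho = 0.60, permutation p = 0.00569, and r = 0.55 without the 2 farthest cows). It was 0.52 for HSPE1, 0.47 for HSPA5, 0.43 for HSPH1, 0.39 for HSPA8 and 0.25 for HSP90AB1. All 14 T cell genes had a positive r with HSPD1, HSPE1, HSPA5 and HSPH1. The T cell r was 0.18 for HSPA1A, -0.04 for HSP90AA1, -0.11 for HSPB1 and -0.37 for DNAJB1. With the total count HSP90AA1 had r = 0.50 (permutation p = 0.0251, adjusted p = 0.139, rho = 0.45, permutation p = 0.0463, and r = 0.23 without the 2 farthest cows) and DNAJB1 had r = 0.40 (permutation p = 0.0774, adjusted p = 0.25, rho = 0.60, permutation p = 0.00662, and r = 0.33 without the 2 farthest cows). The part of cell composition or of handling in these relations was not tested.

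**Figure D3:**
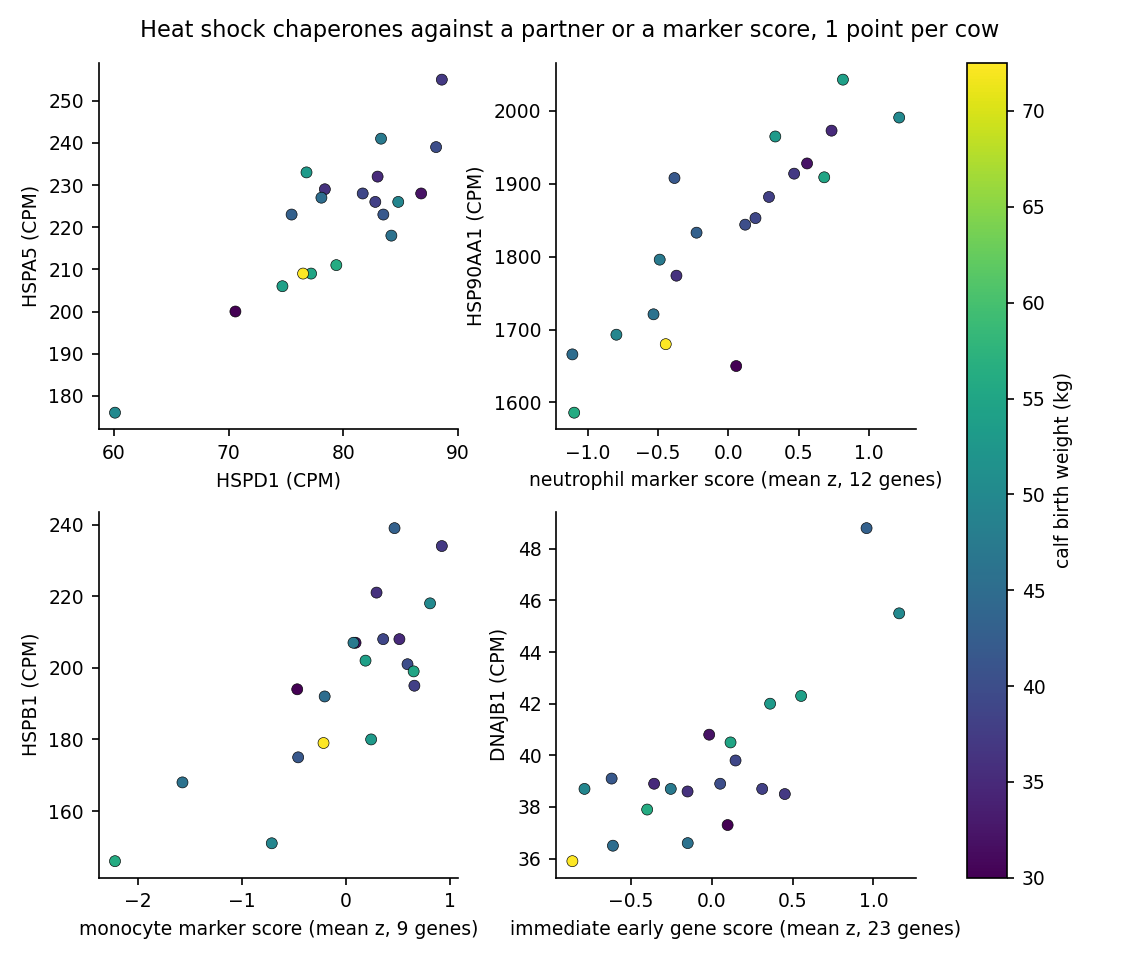
Pairs of measures with 1 point per cow (n = 20) coloured by calf BW in kg, namely HSPA5 against HSPD1 (both CPM) and, each in CPM against a marker score (mean z value), HSP90AA1 against neutrophil genes, HSPB1 against monocyte genes and DNAJB1 against immediate early genes. The r values are 0.87, 0.85, 0.83 and 0.79, and the recipient of the 50 kg calf lies at the low end of the first panel (HSPA5 176 CPM, HSPD1 60.1 CPM) and near the high end of the last (DNAJB1 45.5 CPM).

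The pairs were then recomputed on what remained after the neutrophil and T cell scores were regressed out, and after all 8 cell type scores were. The number with r of at least 0.6 was 9 and 8, while the share of all gene pairs at 0.6 rose to 1.68% and 3.53%. HSPA5 and HSPD1 then had r = 0.82 and 0.88, HSPA8 and HSPD1 0.83 and 0.75, and HSPA8 and HSPA5 0.73 and 0.79. None of these genes had an adjusted p under 0.05 with any score, so the step was a weak check of their pairs. The pairs were not all those of the unadjusted values, since HSPA5 and HSPH1 went from 0.65 to 0.56 and 0.58, and HSPH1 and HSPD1 from 0.71 to 0.60 and 0.45. HSP90AA1 had other partners after this step. Its r with HSPA8 went from 0.08 to 0.64 and 0.62, its r with HSPH1 from -0.32 to 0.57 and 0.61, and its r with HSP90AB1 from 0.25 to 0.62 and 0.57. Its r with HSPB1 fell from 0.55 to 0.15 and -0.19. With 8 scores removed from 20 cows few degrees of freedom remain, so the last values are the less certain.

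Whether the chaperones were related to calf BW was tested with the slope of the counts on BW in the 19 cows with calves under 72.5 kg (edgeR's quasi-likelihood test, p-values adjusted to a false discovery rate, FDR, over all 16206 genes). None of the 10 chaperones was a differentially expressed gene (DEG) at FDR below 0.05 in edgeR, where 0% of all genes passed, or in DESeq2, where 1.22% did. At an unadjusted p below 0.05 there was 1 member, HSPB1, by edgeR as by DESeq2, against 13.9% of all genes. HSPB1 lay on the negative side, which held 7.08% of all genes, and no member was among the 6.78% on the positive side. Of the 10 slopes 8 were negative and 2 positive. Their median was -0.0031 log2 units per kg, beside -0.000719 over all genes, of which 8662 had a negative and 7544 a positive slope.

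**Figure D4:**
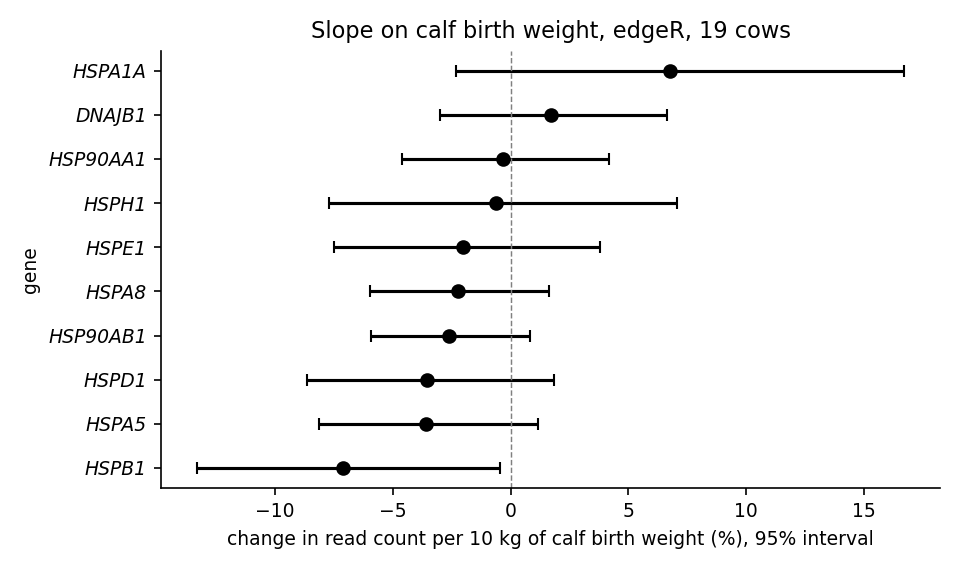
Change in read count (%) per 10 kg of calf BW (horizontal axis) for each heat shock chaperone (vertical axis), with the point at the edgeR estimate and the bar its 95% interval in 19 cows. The interval leaves out 0 for HSPB1 alone (-13.3% to -0.43%), and it is widest for HSPA1A (-2.30% to 16.7%).

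HSPB1 had an estimated change of -7.10% per 10 kg of calf BW (95% interval -13.3% to -0.43%), a slope of -0.0106 ± 0.0048 log2 units per kg (SE, n = 19, edgeR unadjusted p = 0.0384, FDR = 0.330). Cows with calves of 30 to 40 kg had 194 to 234 CPM of HSPB1, whereas those with calves of 49.5 to 56 kg had 146 to 218 CPM, so the ranges overlapped. The slope rested in part on the recipient of the 56 kg calf, without which it was -0.00697 (p = 0.155). That cow also had the lowest monocyte score (-2.22) and the highest eosinophil score (2.15). With the monocyte score in the model, an alternative added after seeing the data, the slope of HSPB1 was -0.00603 (p = 0.0656), and with the eosinophil score, also added, it was -0.00859 (p = 0.139). With the immediate early score, a planned covariate, it was -0.012 (edgeR p = 0.00273, FDR = 0.135). All 9 monocyte genes tested had a negative slope on calf BW, 0 of them at an unadjusted edgeR p below 0.05, and both eosinophil genes tested had a positive slope at a p below 0.05. The part of either cell type in the slope of HSPB1 was not tested beyond these values.

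HSPA1A had the largest positive slope, 6.76% per 10 kg, but its interval ran from -2.30% to 16.7% (p = 0.140, FDR = 0.529). With the eosinophil score in the model, an alternative added after seeing the data, its slope went from 0.00944 to 0.00204 log2 units per kg (edgeR p = 0.75). Such a drop was not particular to HSPA1A, since HSPA8 went from -0.00326 to -0.000582 with the same covariate. Both genes of that score had a positive slope on calf BW themselves. The part of eosinophils in the slope of HSPA1A was not tested. The lowest cows for HSPA1A had calves of 40 and 36 kg, and the recipient of the 30 kg calf, at 342 CPM, lay within the 324 to 405 CPM of the cows with calves of 43 to 56 kg. DNAJB1 was the other positive member, at 1.72% per 10 kg (-2.97% to 6.65%, p = 0.460). Neither slope exceeded what the spread between cows allows.

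For the remaining members the intervals kept the change within 10% per 10 kg in either direction. HSPA8 had -2.24% (-5.96% to 1.63%, p = 0.239), HSPA5 -3.59% (-8.14% to 1.18%, p = 0.130) and HSPH1 -0.605% (-7.70% to 7.04%, p = 0.866). The HSP90 genes had -0.305% for HSP90AA1 (-4.60% to 4.19%, p = 0.887) and -2.60% for HSP90AB1 (-5.91% to 0.82%, p = 0.127). The mitochondrial chaperonin had -3.53% for HSPD1 (-8.63% to 1.84%, p = 0.182) and -2.01% for HSPE1 (-7.49% to 3.79%, p = 0.470). These intervals do not show that the levels were equal across calf BW.

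The slopes of several members depended on the recipient of the 30 kg calf, which was lowest or second lowest in 5 members. Without it 5 members had an unadjusted p below 0.05 in edgeR, all with a negative slope. Of all genes in that fit, 13.6% had such a p in either direction and 6.84% with a negative slope. The 5 members were HSP90AB1 (-4.47% per 10 kg, p = 0.00576), HSPA5 (-5.60%, p = 0.0207), HSPA8 (-4.18%, p = 0.0229), HSPB1 (-8.51%, p = 0.0234) and HSPD1 (-5.70%, p = 0.0347). Their FDR lay between 0.209 and 0.327, so none was called. Leaving out any other cow gave 0 or 1 member at that level, with 0 when the recipient of the 53, 37, 36, 49.5 or 56 kg calf was left out. Other omissions brought slopes nearer to 0, in log2 units per kg. Without the recipient of the 55 kg calf HSPA8 went from -0.00326 to -0.00143 (p = 0.614) and HSP90AB1 from -0.0038 to -0.00215 (p = 0.405). Without that of the 50 kg calf HSPA5 went from -0.00528 to -0.0035 (p = 0.213), HSPD1 from -0.00519 to -0.00308 (p = 0.302) and DNAJB1 from 0.00247 to 0.00135 (p = 0.675). The slope of HSPE1 was -0.00294 in all 19 cows and ranged from -0.00504 without the recipient of the 30 kg calf to -0.00123 without that of the 37 kg calf. For DNAJB1 the highest was 0.00385, without the recipient of the 56 kg calf. HSPA8, HSPA5 and HSPD1 are closely correlated, so they are not separate pieces of evidence.

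**Figure D5:**
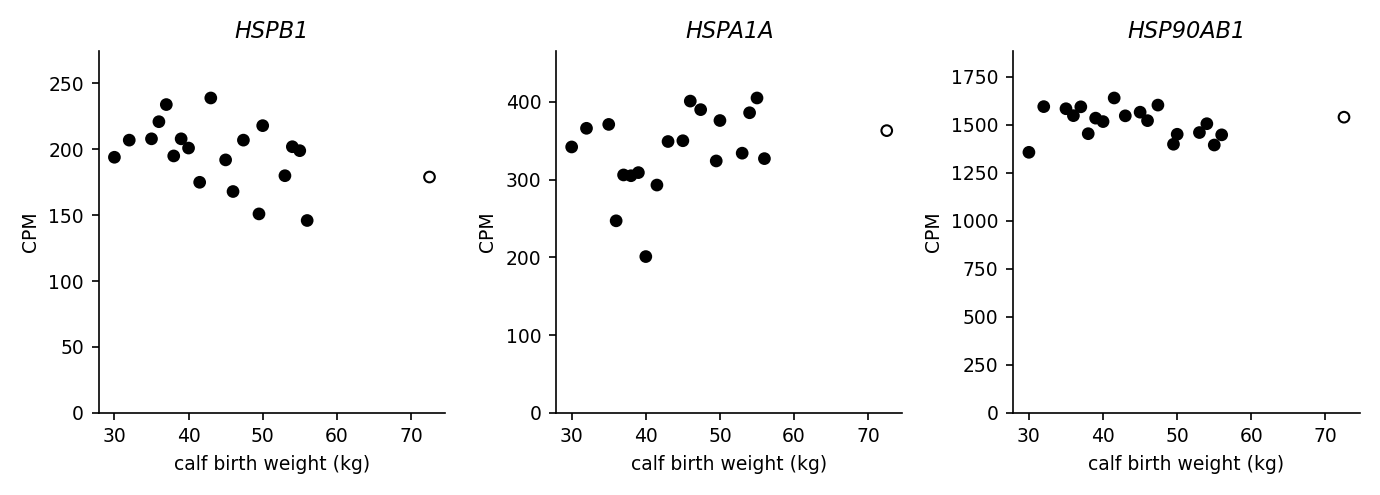
CPM (vertical axes, from 0) of HSPB1, HSPA1A and HSP90AB1 against calf BW in kg (horizontal axes), with 1 point per cow and the recipient of the 72.5 kg calf, left out of the fit, as an open circle. HSPB1 is 194 CPM at 30 kg, highest at 43 kg (239 CPM) and lowest at 56 kg (146 CPM), HSPA1A dips to 201 CPM at 40 kg, and the low point of HSP90AB1 at 30 kg (1357 CPM) lies apart from the recipients of the next heavier calves (1595 CPM at 32 kg).

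The partners of these chaperones were described from lists of related genes. Of all genes tested, 7.08% had a negative and 6.78% a positive slope at an unadjusted edgeR p below 0.05. Slopes of either size were negative for 8662 of the 16206 genes. Whether any list differed from these shares was not tested. Of HSP70 relatives, 11 of 12 were tested, with 6 positive and 5 negative slopes on calf BW and 1 at an unadjusted p below 0.05, HYOU1, an ER relative of HSP70 (-0.00891 ± 0.00379 log2 units per kg, SE, edgeR p = 0.0286). Among 10 nucleotide exchange factors, which reset HSP70 for its next client, 3 slopes were positive and 7 negative, and 3 of the negative ones had a p below 0.05, led by BAG3, an HSP70 partner that directs clients to autophagy (-0.0171 ± 0.00547, edgeR p = 0.00522, FDR = 0.190). All 29 J-domain genes were tested. They had 12 positive and 17 negative slopes, with 1 positive and 3 negative at p below 0.05, led by DNAJC11 of the mitochondrion (-0.00756 ± 0.00232, edgeR p = 0.00387, FDR = 0.178).

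HSP90 relatives and co-chaperones gave the smallest p of the chaperone lists. Of 16 genes 15 were tested, 4 with a positive and 11 with a negative slope, and 2 of the negative ones had a p below 0.05. PPID, cyclophilin 40, which docks on HSP90, ranged from 42.2 to 56.7 CPM over the cows and had a slope of -0.0128 ± 0.00283 log2 units per kg (SE, n = 19, edgeR p = 0.000182, FDR = 0.0976). DESeq2 gave PPID an FDR of 0.0121, the only gene of the chaperone lists that it called. Of all genes DESeq2 called 1.22%. Leaving out each cow kept the slope of PPID between -0.0143 and -0.0114 and its edgeR FDR between 0.0686 and 0.171. PPID was picked for its small p in the same cows, so these fits are not separate evidence. Without the recipient of the 56 kg calf the edgeR FDR rose to 0.436 for BAG3, 0.396 for DNAJC11 and 0.627 for HYOU1. HSP90B1, the HSP90 of the ER, had -0.00412 ± 0.00424 (edgeR p = 0.342).

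Of 14 subunits of the cytosolic chaperonin and prefoldin, 5 slopes were positive and 9 negative, with CCT4 at p = 0.0373 (edgeR). The mitochondrial protease and chaperone list had 8 of 9 genes tested, 4 in each direction, with AFG3L2, an inner membrane protease, at p = 0.0264, and CLPP was listed at 0 in all cows. Of 23 genes of ER folding and the unfolded protein response, 7 slopes were positive and 16 negative, with 2 of the negative ones at p below 0.05, the smaller being PDIA4, a disulfide isomerase (p = 0.044).

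Heat shock factors and their regulators had 2 positive and 4 negative slopes in 6 genes. HSF1, the main activator of these genes under stress, had -0.0067 ± 0.00374 log2 units per kg (edgeR p = 0.0879), and 2 others had a p below 0.05, HSF2BP (p = 0.0212) and HSF5 (p = 0.0305). Of 9 other small heat shock genes 5 were tested, 2 with a positive and 3 with a negative slope and none at p below 0.05, HSPB2 being nearest (p = 0.062). HSPB3 and HSPB9 were below the count limit and CRYAA was listed at 0. The immediate early genes were split, 11 positive and 12 negative of 23, with FOSB at p = 0.0306 on the positive side. No gene of any of these lists had an edgeR FDR below 0.05, and 0% of all 16206 genes tested did.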

How the data were processed

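Whole blood RNA of 20 cows was sequenced, and the authors deposited raw read counts per Entrez gene identifier, 1 table per cow. Per the labels and the study's methods, reads were checked with FastQC 0.11.9, trimmed with Trimmomatic, aligned with STAR 2.7.0b and counted with featureCounts of Subread 2.0.3. The strand setting and the handling of reads matching several genes are not given in the sources used here. Symbols came from the NCBI table of the ARS-UCD2.0 assembly, whose build differs from that of the reads, so no coordinates are given. Sequences were not used here.

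Slopes on calf BW were fitted in 19 cows with edgeR 4.0.16 (R 4.3.3, TMM, quasi-likelihood test) on genes with 10 or more counts in 5 or more cows, with Benjamini-Hochberg adjustment over 16206 genes. DESeq2 1.42.0 and limma 3.58.1 were alternatives. DESeq2 adjusted over the 15479 genes that its filter kept. In simulated counts for 16206 genes, 200 of them changed by 0.06 log2 units per kg, edgeR recovered 76.5% with 3.16% of its calls false, and DESeq2 80.5% with 14.8% false. The simulated slope was far steeper than that of any member, the steepest being -0.0106 for HSPB1. Recovery at slopes of the members' size was not simulated. Correlations used log2 CPM with a prior count of 2 over all 20 cows, with two-sided permutation tests of 100000 resamples in Python 3.11.15, numpy 2.4.6, scipy 1.17.1 and pandas 2.3.3. Figures were drawn with matplotlib 3.10.9.

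The members and gene lists were chosen with earlier results of these data known. Genes named are the members, the gene with the smallest p of each related list, the 3 genes with the highest r to each member (1 near HSPB1 is not reported here), close copies of members and the 2 most abundant genes of marker lists that moved with a member. HSP90B1, HSF1 and HSF5, lists' genes at 0 or under the count limit, and IL5RA and GATA1 were named outside this rule after their values were seen. The monocyte and eosinophil covariates and the residuals after 8 marker scores or the total count were added after seeing the data. All cows were 1 group, and neither labels nor methods name a sequencing batch, so no comparison within batches was made.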

Additional observations from a re-analysis of the deposited data

How the results depend on the processing

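The number of chaperones that were DEG was 0 under all 32 alternatives, which included DESeq2, limma-voom, other size factors and filters, all 20 cows, the rank of BW, covariates and leaving out each cow. Few genes of the whole table passed either, with 0% in the main edgeR fit, 1.22% in DESeq2 and 0 to 34 genes when each cow was left out. A count of 0 is therefore not particular to the chaperones. The number at an unadjusted p below 0.05, 1 in edgeR, was 0 with every gene that had any count and with the monocyte or eosinophil score as a covariate. It was 0 to 5 when each cow was left out. The share of all genes at that p was 13.9% in the main edgeR fit. It ranged from 9.93% without the recipient of the 56 kg calf to 15.3% without that of the 32 kg calf. Such shares are not given for the other alternatives. Slopes near 0 changed sign. That of HSP90AA1 was 0.000209 with every gene that had any count, 0.000645 with the neutrophil score, 0.00214 with the monocyte score and 0.00247 with the eosinophil score, and -0.0026 to 0.00216 when each cow was left out. That of HSPH1 was 0.00206 with the eosinophil score and -0.00329 to 0.00307 when each cow was left out, and that of DNAJB1 was -0.000301 with all 20 cows. The cause was not tested. The other 7 slopes kept their sign under every alternative but not their size. With the eosinophil score HSPA1A went from 0.00944 to 0.00204, HSPA8 from -0.00326 to -0.000582, HSPA5 from -0.00528 to -0.00228, HSP90AB1 from -0.0038 to -0.00239, HSPD1 from -0.00519 to -0.00283 and HSPE1 from -0.00294 to -0.00149. With all 20 cows HSPA8 was -0.00172, HSP90AB1 -0.00148 and HSPE1 -0.000669. The number of pairs with r of at least 0.6, 8 of 45, was 4 without the 2 farthest cows, where fewer cows remain, 2 at a limit of 0.8, and 6 to 10 when each cow was left out, the fewest without the recipient of the 50 kg calf. It was 6 by Spearman rho and 8 or 9 under the remaining alternatives. Counting error alone gives a coefficient of variation of 5.17% at the lowest HSPE1 count, beside 8.66% in all, and 3.28% beside 7.76% for DNAJB1, so depth limits these members most.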
